A study of Mus musculus with 13 samples.

Results

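Hmga1 and Hmga2, the 2 genes described here, encode the HMGA proteins, small architectural factors of chromatin. They were picked by name, and their symbols were matched to the Ensembl IDs of 43629 genes counted in 13 libraries of mouse embryo fibroblasts. Both passed the filter on low counts that left 14076 genes for testing. Hmga1 is ENSMUSG00000046711 (GRCm38.p6, chromosome 17, 27556574 to 27563672, plus strand) and Hmga2 is ENSMUSG00000056758 (chromosome 10, 120361268 to 120476469, minus strand). The pair was chosen with the results of every comparison known, so the values of Hmga1 and Hmga2 are given as a description and carry no test.

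The study asked which RNAs associate with IMP1 and IMP2, RNA-binding proteins encoded by Igf2bp1 and Igf2bp2, and how deleting either one changes the RNA of the cell. RNA was recovered with an IMP1 antibody, an IMP2 antibody or control IgG, with 3 libraries each. Total RNA was sequenced from 1 library each of cells deleted for IMP1 (IMP1 KO), cells deleted for IMP2 (IMP2 KO), and the wild-type cells labelled for each (IMP1 WT and IMP2 WT). All were fibroblasts grown in DMEM with 10% FBS; the labels put E12.5 in the strain field, and an Illumina TruSeq kit was used for the libraries. The labels give no genotype for the immunoprecipitated cells, no strain, and no statement that replicates or cell lines came from separate cultures or embryos. The spread between the 3 libraries of a group may therefore be technical, and each knockout is known here from 1 library only.

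HMGA proteins bind the minor groove of AT-rich DNA through short AT-hook segments, bend it, and help other factors assemble on enhancers and promoters. They are abundant in embryonic and proliferating mesenchyme, low in most adult tissue, and high again in many tumours; mice without Hmga2 are pygmy. Hmga2 mRNA is a classic target of the let-7 microRNAs, and work on human cells has described IMP proteins as holding it away from let-7.

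The 250 bases before the first listed start of each gene, taken from RefSeq on GRCm38.p6, are shown to let their promoters be compared. Any part of these sequences in the lower levels of both genes in the knockout cells was not tested. Capitals mark GGGCGG or its reverse complement CCGCCC (a GC box) in both, ATTTGCAT (an octamer) in Hmga1, and TCTCTCTC (a pyrimidine repeat) in Hmga2.
Hmga1, chr17:27556324-27556573, plus strand: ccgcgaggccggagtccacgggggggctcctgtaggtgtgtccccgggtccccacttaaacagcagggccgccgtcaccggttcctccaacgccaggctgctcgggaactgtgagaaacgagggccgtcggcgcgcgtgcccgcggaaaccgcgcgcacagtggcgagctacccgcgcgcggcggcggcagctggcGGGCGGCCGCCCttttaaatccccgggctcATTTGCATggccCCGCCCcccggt
Hmga2, chr10:120476470-120476719, minus strand: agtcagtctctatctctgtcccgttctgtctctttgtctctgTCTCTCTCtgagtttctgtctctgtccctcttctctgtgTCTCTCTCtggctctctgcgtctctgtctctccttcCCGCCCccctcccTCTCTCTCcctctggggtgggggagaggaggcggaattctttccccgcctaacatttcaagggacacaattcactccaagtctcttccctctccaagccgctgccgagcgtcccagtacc
The Hmga1 window was 72.8% G and C, higher than in 94.0% of 32851 RefSeq windows of this length, and held 34 CpG. The Hmga2 window was 56.4% G and C, held 8 CpG, and was 70.8% pyrimidine, a share higher than in 99.6% of windows. GGGCGG occurred 3 times before Hmga1 and 1 time before Hmga2, and 32.7% of all windows held it on either strand. ATTTGCAT, in 1.6% of windows, occurred 1 time before Hmga1, and TCTCTCTC, in 3.26% of windows, occurred 3 times before Hmga2; these 2 motifs were added after the sequences were seen. Neither window held CCAAT (33.8% of windows), TATAAA (12.4%) or TGACTCA (4.46%), each searched on both strands.

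Gene counts per library lay between 11430002 and 21756430. All 10 fibroblast markers reached 1 CPM, a count scaled to the depth of its library, in each total RNA library and 9 of 10 did in each immunoprecipitate, the exception being Lum. Igf2bp1 stood at 3.21 CPM in IMP1 KO cells, against 32.3 CPM in IMP1 WT cells, and Igf2bp2 at 28.2 CPM in IMP2 KO cells, against 149.0 CPM in IMP2 WT cells, in the direction of the labels. IMP2 IP replicate 1 stood apart from the other 2 libraries of its group, with a chi-square per degree of freedom of 7.70 and 8.07 against them and of 2.75 between those 2; elsewhere this lay between 1.14 and 2.60. Genes with no overlap between groups and genes called by edgeR's quasi-likelihood test (Benjamini-Hochberg adjusted p under 0.05) made up most of the table, as given at each comparison.

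The 2 messages parted in the IMP2 immunoprecipitate: Hmga1 was higher there than with IgG, whereas Hmga2 was lower. With the IMP1 antibody both were lower than with IgG, Hmga1 by more. Levels are in CPM scaled by TMM, which divides each library by an effective size; immunoprecipitates and total RNA were scaled separately. No transcript length was used, so a level of Hmga1 cannot be set against one of Hmga2.

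Hmga1 had 22.9, 22.1 and 21.8 CPM in the IMP1 immunoprecipitates, 96.8, 101.8 and 99.7 CPM in the IMP2 immunoprecipitates, and 44.3, 46.8 and 46.4 CPM in the IgG libraries. The 3 groups did not overlap. Group means were 22.3 ± 0.539 CPM with IMP1, 99.4 ± 2.50 CPM with IMP2 and 45.8 ± 1.37 CPM with IgG (SD, n = 3 each). From highest to lowest the order was IMP2, IgG, IMP1, with gaps many times the spread within any group.

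Hmga2 had 209.2, 211.3 and 223.7 CPM in the IMP1 immunoprecipitates, 212.4, 269.6 and 247.0 CPM in the IMP2 immunoprecipitates, and 348.6, 332.0 and 333.2 CPM in the IgG libraries. All 6 libraries made with an IMP antibody lay below all 3 IgG libraries, and the IMP1 and IMP2 groups overlapped through IMP2 IP replicate 1. Means were 214.7 ± 7.82 CPM with IMP1, 243.0 ± 28.8 CPM with IMP2 and 337.9 ± 9.27 CPM with IgG (SD, n = 3 each). IgG was thus first in the order, and the ranges of the other 2 overlapped.

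**Figure D1:**
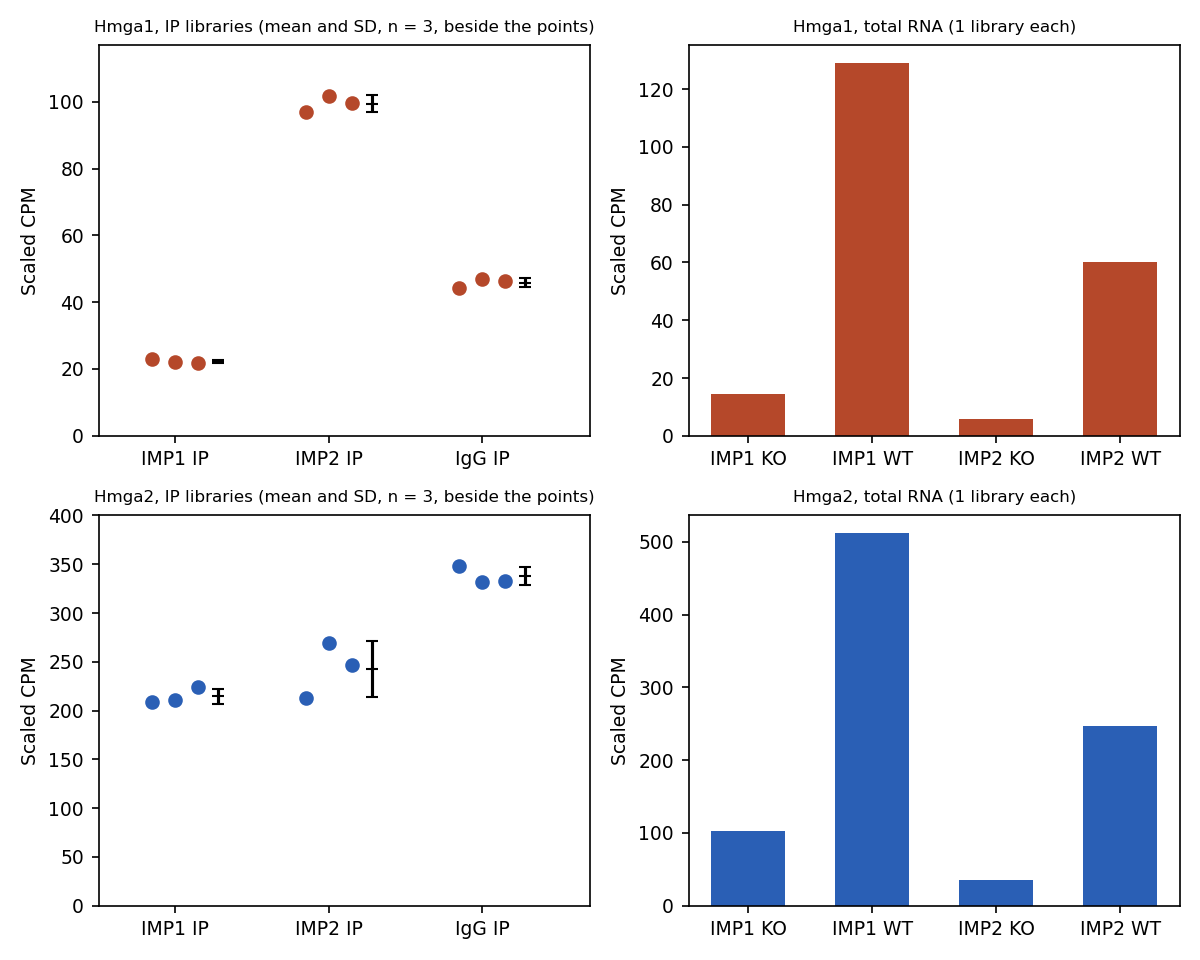
Scaled CPM (y axis) of Hmga1 (top) and Hmga2 (bottom) by group: immunoprecipitates on the left, 1 point a library with the mean and SD of 3 beside it, and total RNA on the right, 1 library a bar. Hmga1 was highest with IMP2 among the immunoprecipitates (96.8 to 101.8 CPM), and both genes were lower in each knockout than in its wild type.

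In IMP1 IP over IgG IP, the log2 fold change was -1.04 (SE 0.0565) for Hmga1, or 2.06-fold lower, and -0.65 (SE 0.0565) for Hmga2, or 1.57-fold lower. Libraries of the 2 groups did not overlap for either gene, which held for 69.6% of tested genes, 34.5% on the higher and 35.1% on the lower side. Of all tested genes, 12.0% lay below Hmga1 and 18.2% below Hmga2. The edgeR test called 63.6% of genes in this comparison, 31.7% higher and 31.9% lower, so a gene on the lower side was common. Genes on the higher side made up 49.81% of the calls, and 31.6% under upper-quartile and 33.33% under total-count scaling.

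In IMP2 IP over IgG IP, Hmga1 had a log2 fold change of 1.12 (SE 0.0469), or 2.17-fold higher, the 286th highest of 14076 genes. Hmga2 had -0.47 (SE 0.0555), or 1.39-fold lower, with 27.5% of genes below it. Neither overlapped between groups, nor did 78.3% of tested genes, 40.5% on the higher and 37.8% on the lower side, and 77.6% were called, 40.3% higher and 37.3% lower. The higher side made up 51.93% of the calls, 39.88% under upper-quartile and 62.24% under total-count scaling. Without IMP2 IP replicate 1 the log2 fold changes were 1.16 for Hmga1 and -0.36 for Hmga2. The IMP1 and IMP2 comparisons share the same IgG libraries and are given side by side for that reason.

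IMP1 IP over IMP2 IP does not use the IgG libraries. Hmga1 stood at -2.16 (SE 0.0505), or 4.46-fold lower with IMP1, the 18th lowest of 14076 genes. Hmga2 stood at -0.18 (SE 0.0561), with overlapping groups. Without IMP2 IP replicate 1, Hmga2 stood at -0.28 and the remaining libraries did not overlap. Without IMP2 IP replicate 2 it stood at -0.11. Here 73.2% of genes had no overlap, 35.4% on the higher and 37.8% on the lower side, and 71.4% were called, 34.1% higher and 37.3% lower; the higher side made up 47.75% of the calls and 27.82% under total-count scaling.

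**Figure D2:**
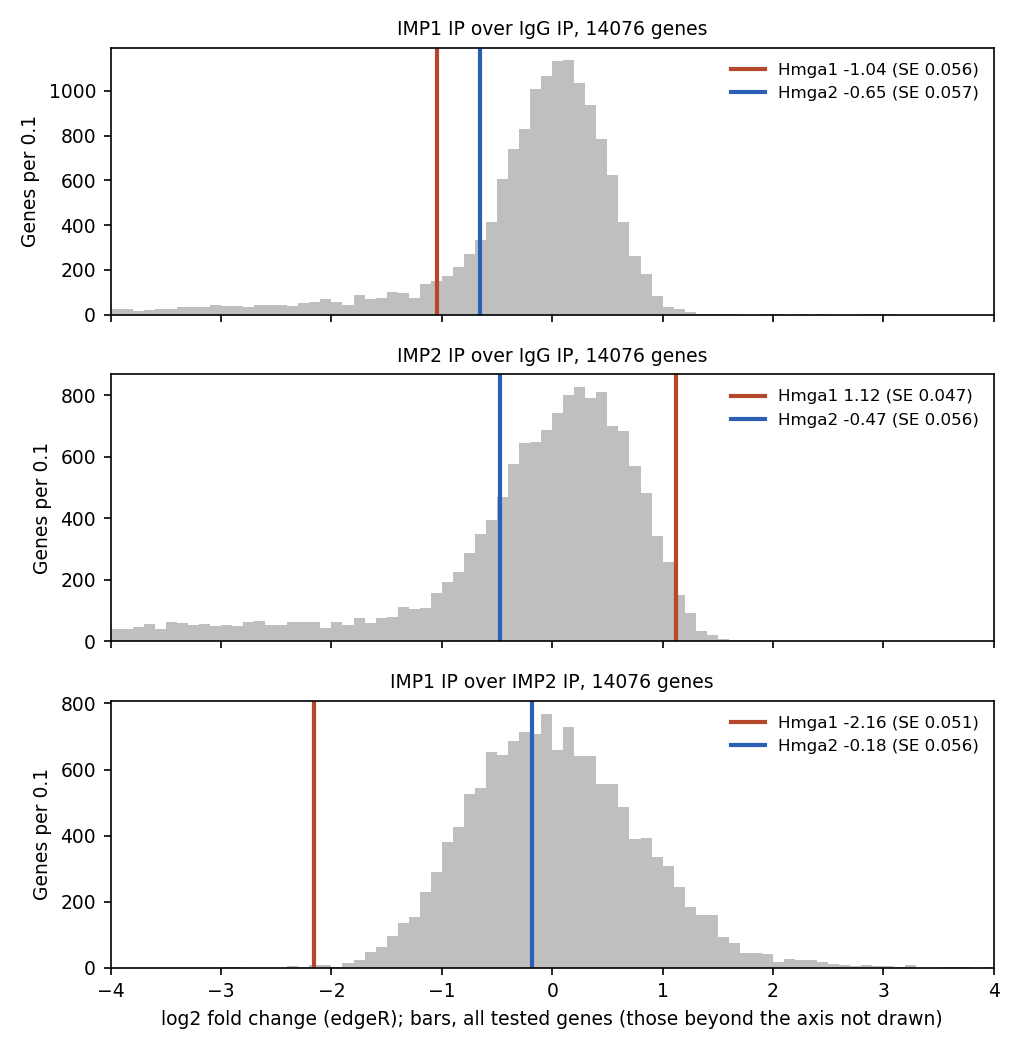
Log2 fold changes of all tested genes as grey bars, with Hmga1 and Hmga2 as marked lines, in the 3 comparisons of immunoprecipitates; genes beyond the axis are not drawn. Hmga1 lies at 1.12 and Hmga2 at -0.47 in IMP2 IP over IgG IP, on opposite sides of 0.

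The ratio of the counts of the 2 genes within 1 library does not depend on how libraries are scaled. Per 100 counts of Hmga2 there were 10.9, 10.5 and 9.76 counts of Hmga1 with IMP1, 45.6, 37.8 and 40.3 with IMP2, and 12.7, 14.1 and 13.9 with IgG. The means were 10.4 ± 0.590 with IMP1, 41.2 ± 3.98 with IMP2 and 13.6 ± 0.765 with IgG (SD, n = 3 each), and no 2 groups overlapped. In total RNA the ratio was 14.2 in IMP1 KO, against 25.2 in IMP1 WT, and 16.2 in IMP2 KO, against 24.4 in IMP2 WT. Both knockouts had less Hmga1 per Hmga2 than the wild types. Across the kinds of library this ratio depends on Hmga1b, a near-identical copy of Hmga1 described further on, which had 59.6 to 76.9 counts per 100 of Hmga1 in total RNA and 0.364 to 1.296 in immunoprecipitates. With the copy added there were 11.05, 10.52 and 9.87 counts per 100 of Hmga2 with IMP1, 46.0, 38.2 and 40.6 with IMP2, and 12.8, 14.2 and 14.1 with IgG. The same sum was 25.1 in IMP1 KO, against 40.8 in IMP1 WT, and 25.9 in IMP2 KO, against 41.4 in IMP2 WT. The wild types then lay within the range of the IMP2 immunoprecipitates, and the order among immunoprecipitates and between knockouts and wild types was as before.

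**Figure D3:**
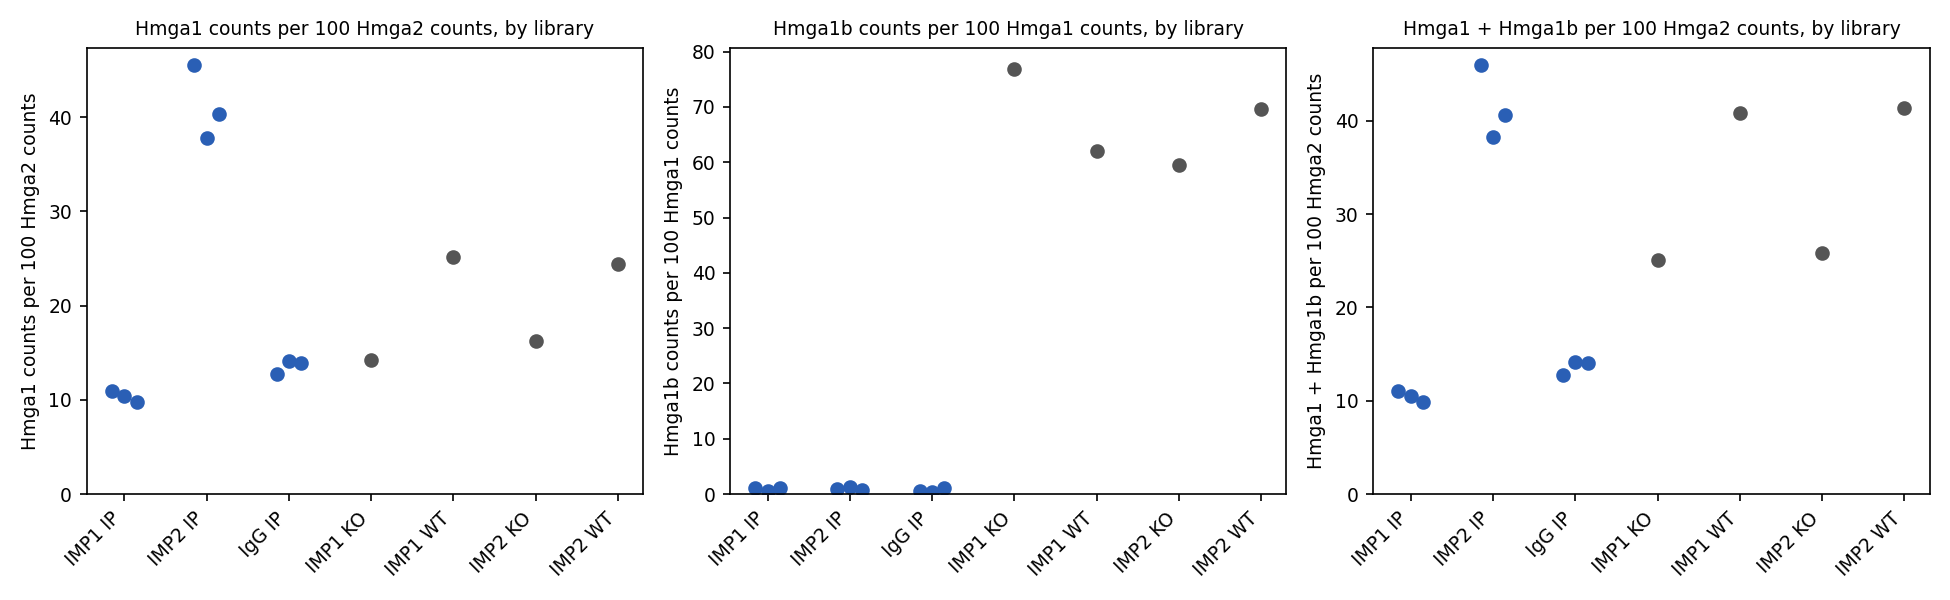
Counts of Hmga1 per 100 counts of Hmga2 (left), of its near-identical copy Hmga1b per 100 counts of Hmga1 (middle), and of Hmga1 and Hmga1b together per 100 counts of Hmga2 (right), 1 point a library, blue for immunoprecipitates and grey for total RNA. The IMP2 immunoprecipitates lie above those with IMP1 and IgG on the left and on the right, whereas the wild types, at 25.2 and 24.4 on the left, lie at 40.8 and 41.4 on the right, among them.

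The high level of Hmga2 with IgG came with other signal from its locus. Inside the Hmga2 interval the annotation places the long non-coding genes 1700006J14Rik and 9230105E05Rik and the microRNA gene Mir763. 1700006J14Rik had 26, 28 and 20 counts with IMP1, 17, 31 and 44 with IMP2, and 361, 278 and 314 with IgG, and 0 to 3 in total RNA. Its log2 fold change over IgG was -3.97 with IMP1 (adjusted p = 1.57e-15) and -4.06 with IMP2 (adjusted p = 2.03e-16, edgeR). 9230105E05Rik had 16, 11 and 19 counts with IMP1, 19, 20 and 24 with IMP2, and 298, 202 and 293 with IgG; its log2 fold changes were -4.38 and -4.33 with IMP1 and IMP2. Mir763 had 3 to 10 counts with IMP1, 2 to 5 with IMP2, and 38 to 45 with IgG. Reads that fell in no annotated gene were 7.43% to 7.66% with IMP1, 4.70% to 5.22% with IMP2, and 24.2% to 25.2% with IgG, and reads that fit more than 1 gene 1.98% to 2.01%, 1.97% to 2.00%, and 5.88% to 6.35%, in the same order of groups. All of these move with Hmga2's lower level with the IMP antibodies, and their part in it was not tested. No gene of the annotation overlaps Hmga1.

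Hmga1b on chromosome 11 (120762794 to 120764392) is a near-identical copy of Hmga1, and reads from one could be counted for the other or dropped. It had 4, 2 and 4 counts with IMP1, 17, 30 and 16 with IMP2, and 4, 2 and 7 with IgG, and 133 in IMP1 KO, against 1179 in IMP1 WT, and 56 in IMP2 KO, against 707 in IMP2 WT. The copy thus held a large share of the joint counts in total RNA and almost none in the immunoprecipitates. Annotated pseudogenes as a whole followed the same line, with 0.037% to 0.069% of gene counts in immunoprecipitates and 1.01% to 1.23% in total RNA. Adding the counts of Hmga1 and Hmga1b left the Hmga1 log2 fold changes at -1.04 for IMP1 IP over IgG IP and 1.12 for IMP2 IP over IgG IP. With so few counts of the copy there, the sum could hardly move these values. It also does not restore reads that were dropped.

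In total RNA both messages were lower in each knockout library than in its wild type. Each side is 1 library, so there is no replicate check and intervals cover counting error only. Hmga1 had 14.6 CPM in IMP1 KO, against 128.9 CPM in IMP1 WT, 8.81-fold lower (95% interval 7.54 to 10.4, log2 -3.13). It had 5.74 CPM in IMP2 KO, against 60.2 CPM in IMP2 WT, 10.5-fold lower (8.48 to 13.1, log2 -3.36).

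Hmga2 had 103.0 CPM in IMP1 KO, against 511.9 CPM in IMP1 WT, 4.97-fold lower (4.68 to 5.29, log2 -2.31). It had 35.4 CPM in IMP2 KO, against 246.9 CPM in IMP2 WT, 6.97-fold lower (6.39 to 7.62, log2 -2.80). The copy Hmga1b was 7.11-fold lower (5.94 to 8.57) in IMP1 KO and 12.3-fold lower (9.33 to 16.4) in IMP2 KO. For both genes the order from highest to lowest was IMP1 WT, IMP2 WT, IMP1 KO, IMP2 KO.

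Of 10324 genes with at least 10 CPM in 1 of the 4 libraries, 7.58% were at least 2-fold lower in IMP1 KO, 7.87% in IMP2 KO, and 2.81% in both, where Hmga1 and Hmga2 belong; 5.25% were at least 2-fold higher in IMP1 KO and 7.45% in IMP2 KO. In IMP1 KO, 206 genes were as low as Hmga1 or lower and 329 as low as Hmga2; in IMP2 KO these were 118 and 177. In both knockouts at once, 40 genes were as low as Hmga1 or lower and 69 as low as Hmga2. The wild types also differed from each other: the ratio of IMP1 WT to IMP2 WT was 2.14 (1.98 to 2.31) for Hmga1 and 2.07 (2.00 to 2.15) for Hmga2. The gap between the lowest wild type and the highest knockout was 4.12-fold for Hmga1 and 2.40-fold for Hmga2.

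**Figure D4:**
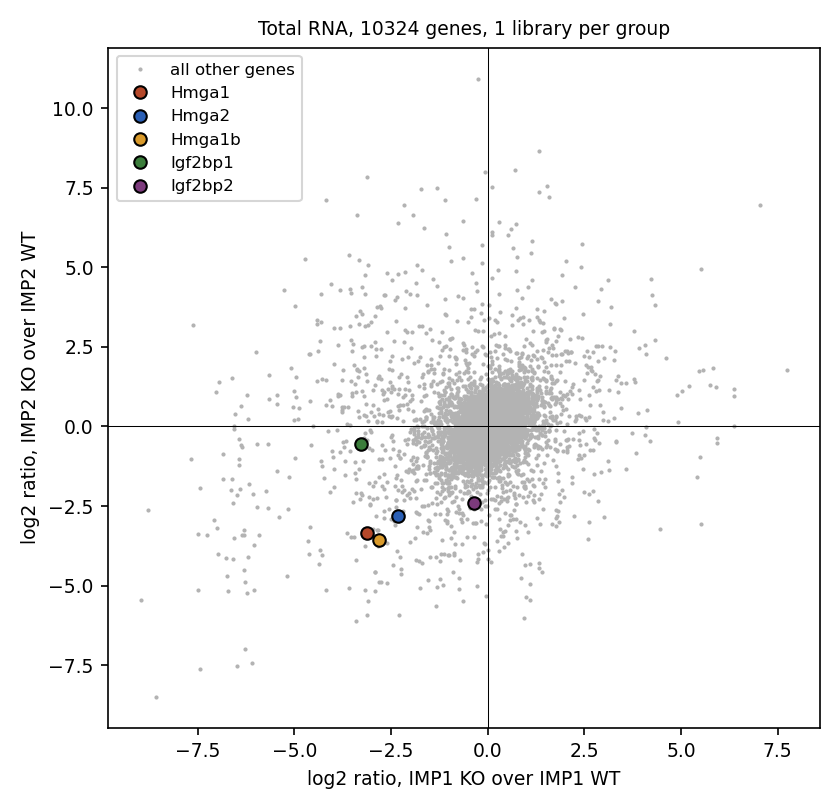
Log2 ratio of IMP1 KO over IMP1 WT (x axis) and of IMP2 KO over IMP2 WT (y axis) for 10324 genes, 1 point a gene, with Hmga1, Hmga2, the copy Hmga1b, Igf2bp1 and Igf2bp2 in colour. Both genes sit in the lower left, Hmga1 at -3.13 and -3.36 and Hmga2 at -2.31 and -2.80.

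Other genes, picked after their values were seen, separated the same libraries. The Y-linked Ddx3y had 0 CPM in IMP1 KO, against 51.0 CPM in IMP1 WT, and 0.183 CPM in IMP2 KO, against 114.2 CPM in IMP2 WT. Eif2s3y, Kdm5d and Uty, also on Y, were at 0 to 0.122 CPM in the knockouts, against 9.02 to 50.3 CPM in the wild types; 3 counts are 0.254 CPM in IMP1 KO and 0.183 CPM in IMP2 KO. Pitx1, Tbx4, Tbx5, Hoxd13 and Hoxa11, factors that place cells along the limbs, were at 0 to 4.52 CPM in the knockouts, against 9.02 to 48.2 CPM in the wild types. The sex or position of the cells and the deletion cannot be told apart for Hmga1 and Hmga2 with 1 library a group. Summed macrophage and leukocyte markers were 11.2 CPM in IMP1 KO, against 22.9 CPM in IMP1 WT, and 273.0 CPM in IMP2 KO, against 30.4 CPM in IMP2 WT; all 6 were at 1 CPM or more in IMP2 KO and their part was not tested. Adgre1, Ptprc and Tyrobp were at 0 in IMP1 KO. Summed skeletal muscle markers were 1.78 CPM in IMP1 KO, against 23.1 CPM in IMP1 WT, and 0.550 CPM in IMP2 KO, against 20.9 CPM in IMP2 WT, with at most 1 of the 4 at 1 CPM or more in any of these libraries; their part was not tested. In bulk RNA, fewer cells with a message and less message per cell cannot be told apart.

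Set against the wild-type total RNA on 1 scale over 13 libraries, Hmga1 had a log2 ratio of -1.80 with IMP1, 0.42 with IMP2 and -0.81 with IgG. Hmga2 had -0.55 with IMP1, -0.31 with IMP2 and 0.05 with IgG. Adding the counts of Hmga1b to Hmga1, an alternative chosen after seeing the data, gave -2.52 with IMP1, -0.30 with IMP2 and -1.53 with IgG, so the sign with IMP2 turned. The signs for both genes with IMP2 and for Hmga2 with IgG also depend on the wild type: against IMP1 WT alone they were -0.13 and -0.84 with IMP2, and -0.47 for Hmga2 with IgG, and against IMP2 WT alone 0.97 and 0.22 with IMP2, and 0.58. Genes of the X and Y chromosomes and of the limbs set the immunoprecipitates apart from total RNA, and their part in these ratios was not tested. The CPM of these genes are on the separate scales of immunoprecipitates and total RNA, not on the 1 scale over 13 libraries. Xist, the RNA that silences an X in female cells, had 116.4 to 123.5 CPM with IMP1, 43.5 to 59.3 CPM with IMP2 and 716.3 to 753.1 CPM with IgG, and 0 to 9.89 CPM in total RNA, while Ddx3y stayed at or under 0.144 CPM in every immunoprecipitate. Within total RNA, Xist had 9.89 CPM in IMP1 KO, against 4.41 CPM in IMP1 WT, and 7.51 CPM in IMP2 KO, against 0 CPM in IMP2 WT. Pitx1, Tbx4 and Tbx5 were at 0 to 0.0853 CPM in every immunoprecipitate, and at 16.6 to 48.2 CPM in the wild types. Hoxd13 and Hoxa11, the other limb factors named above, were at 1.64 to 2.96 CPM and 3.05 to 5.58 CPM in the immunoprecipitates. Both thus lay there above the knockouts (0 to 0.672 CPM) and below the wild types (9.02 to 24.6 CPM). Reads aligned to more than 1 place were 17.2% to 28.2% in immunoprecipitates and 38.4% to 40.9% in total RNA.

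Across the 13 libraries, log2 CPM of Hmga1, counted without its copy, and Hmga2 had a Pearson r of 0.82, given as a description over libraries that share kind, cells and depth. For likeness, 9151 genes with a mean of at least 10 CPM were compared, and predicted genes and pseudogenes were passed over in naming. Those most like Hmga1 were Tnfrsf12a (r 0.970), Etv4 (0.955), Knop1 (0.947), Fhl3 (0.946) and Hoxc10 (0.946). Tnfrsf12a, a TNF receptor family member, had log2 values of -0.39 in IMP1 IP over IgG IP, 0.77 in IMP2 IP over IgG IP, -1.35 in IMP1 KO and -1.79 in IMP2 KO. Hoxc10, a homeobox factor of the hind part of the body, had -0.81, 0.79, -2.97 and -3.22 in the same order. Those most like Hmga2 were Dusp6 (r 0.950), Ptgs2 (0.942), Tbx3 (0.938), Sema7a (0.929) and Ier3 (0.926). Dusp6, a phosphatase that restrains ERK, had -0.10, 0.10, -1.08 and -1.75, and the prostaglandin enzyme gene Ptgs2 had 0.10, -0.09, -3.41 and -6.11 in that order. Tbx3, a limb factor, had -0.47, -0.63, -1.30 and -2.44, against -0.65, -0.47, -2.31 and -2.80 for Hmga2.

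Of the genes next to the pair, AI413582, which follows Hmga1 on chromosome 17, had log2 fold changes of -0.46 with IMP1 (adjusted p = 0.00128) and 0.38 with IMP2 (adjusted p = 0.00156) over IgG in edgeR, and log2 ratios of -0.35 in IMP1 KO and -0.62 in IMP2 KO, with the signs of Hmga1 throughout and smaller values. Grm4, on the other side, averaged 0.229 CPM in wild-type cells. Llph, beside Hmga2, had log2 fold changes of -0.15 with IMP1 (adjusted p = 0.262) and 0.60 with IMP2 (adjusted p = 2.16e-05, edgeR), and ratios of -0.22 and -0.18 in the knockouts. Msrb3, on its other side, had -0.46 with IMP1, 0.52 with IMP2, 0.63 in IMP1 KO and -0.38 in IMP2 KO. Neither neighbour of Hmga2 was lower in the IMP2 immunoprecipitates, as Hmga2 was, nor 2-fold lower in a knockout.

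The other HMG proteins, which also shape chromatin, had no common direction over IgG. Shares of all tested genes were 31.7% higher and 31.9% lower with IMP1, and 40.3% and 37.3% with IMP2. Of 14 tested, 4 rose and 4 fell with IMP1 over IgG (median -0.08, all genes -0.03), and 5 rose and 5 fell with IMP2 (median 0.02, all genes 0.04). The split was 3 and 7 with IMP1, and 3 and 7 with IMP2, under upper-quartile scaling, and 3 and 7, and 8 and 4, under total-count scaling. In IMP1 IP over IMP2 IP, more were lower: 3 of 14 rose and 9 fell (median -0.35, all genes -0.01). Upper-quartile scaling gave 3 and 9 there, and total-count scaling 2 and 11. Of all tested genes, 34.1% rose and 37.3% fell in that comparison. Hmgn1, a nucleosome binder, rose with IMP2 by a log2 fold change of 1.16, close to that of Hmga1, and Hmgn5 fell by 1.35 with IMP1 (adjusted p = 7.99e-12 and 1.09e-07 in edgeR). HMG genes have many processed copies, so their counts are uncertain. In the knockouts the 12 HMG genes with enough counts had medians of 0.14 in IMP1 KO and 0.29 in IMP2 KO, against -0.03 for all genes; 1 was at least 2-fold higher in IMP1 KO, none in IMP2 KO. None of these 12 was 2-fold lower in either knockout, whereas Hmga1 and Hmga2 were in both. Since only 7.58% of all genes were that low in IMP1 KO and 7.87% in IMP2 KO, a count of none among 12 does not set these genes apart.

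Genes that make let-7 or act with it were mostly lower with IMP2 than with IgG: 16 of 20 tested fell and 2 rose (median -0.56). Total-count scaling gave 12 and 5. Across all tested genes, 37.3% fell and 40.3% rose with IMP2 (median 0.04), and 31.9% and 31.7% with IMP1 (median -0.03). With IMP1, 14 rose and 3 fell (median 0.20), but 7 rose and 5 fell under upper-quartile scaling and 8 and 5 under total-count scaling. Tnrc6b and Ago3, of the silencing complex, had log2 fold changes of -1.43 and -1.04 with IMP2 (adjusted p = 7.96e-19 and 7.58e-15), while Xpo5, which exports microRNA precursors, and Dicer1, which cuts them, rose with IMP1 by 0.88 and 0.64 (adjusted p = 1.74e-15 and 3.24e-11, edgeR). At the other end, Prkra and Khsrp had log2 fold changes of 0.54 and 0.47 with IMP2, and Tarbp2 and Hnrnpa1 -0.90 and -0.83 with IMP1. Lin28a and Lin28b, which block let-7 maturation, were at most at 0.0591 CPM and 0.256 CPM in any library and were not tested. In the knockouts the medians of 19 such genes were 0.01 and 0.06, with none past 2-fold. Among all genes 7.58% were 2-fold lower and 5.25% higher in IMP1 KO, and 7.87% and 7.45% in IMP2 KO.

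Described let-7 target messages other than Hmga were split in both antibodies. The whole table had 31.7% of genes higher and 31.9% lower with IMP1, and 40.3% and 37.3% with IMP2. With IMP1, 14 of 30 tested rose and 11 fell (median 0.08), but 9 and 15 under upper-quartile scaling and 10 and 14 under total-count scaling. With IMP2, 10 rose and 15 fell (median -0.18), and total-count scaling gave 13 and 14. There were 9 and 18 with IMP2 under upper-quartile scaling (median -0.36), and 10 and 16 with DESeq2 size factors (median -0.24). Nr6a1 and Arid3b had log2 fold changes of -1.27 and -1.23 with IMP2 (adjusted p = 1.13e-10 and 5.11e-07), and Peg10 fell by 0.93 with IMP1 (adjusted p = 7.82e-15, edgeR). On the higher side, Cdc34 and Hras had 0.81 and 0.79 with IMP2, and Tgfbr1 and Thbs1 0.78 and 0.65 with IMP1. In the knockouts 3 of 25 were at least 2-fold lower and 1 higher in IMP1 KO, and 5 lower and 3 higher in IMP2 KO (medians -0.35 and -0.46). The lower and higher shares of all genes were 7.58% and 5.25% in IMP1 KO, and 7.87% and 7.45% in IMP2 KO. Igf2bp1 and Igf2bp2 are in this list. Each is counted among the lower genes of the knockout in which it was deleted, Igf2bp1 in IMP1 KO and Igf2bp2 in IMP2 KO. Myc, a transcription factor of cell growth, had 32.0 CPM in IMP1 KO, against 98.5 CPM in IMP1 WT, and 54.1 CPM in IMP2 KO, against 74.3 CPM in IMP2 WT. Plagl1, a zinc-finger factor, had 315.7 CPM in IMP1 KO, against 70.9 CPM in IMP1 WT, and 365.2 CPM in IMP2 KO, against 71.9 CPM in IMP2 WT.

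Genes tied to HMGA proteins as targets, many from other cell types, were divided with IMP1 and mostly higher with IMP2. For all tested genes the shares were 31.7% higher and 31.9% lower with IMP1, and 40.3% and 37.3% with IMP2. Of 15 tested, 6 rose and 7 fell with IMP1 (median 0.00, but 3 and 8 under upper-quartile and total-count scaling), and 9 rose and 2 fell with IMP2 (median 0.28; 7 and 4 under upper-quartile scaling). Ccne1, a cyclin of the start of DNA synthesis, rose by 1.08 with IMP1 and 0.80 with IMP2, and Cdkn2a, which encodes cell cycle inhibitors, fell by 0.80 with IMP1 (adjusted p = 2.87e-10, 1.89e-08 and 9.74e-08 in edgeR). Igf1r and Insr, the 2 that fell with IMP2, had log2 fold changes of -0.85 and -0.57. In IMP1 KO 3 of 15 were at least 2-fold lower and none higher, where 7.58% and 5.25% of all genes were. In IMP2 KO 3 were lower and 3 higher, where 7.87% and 7.45% of all genes were. Igf2bp2, the gene deleted in IMP2 KO, was among the 3 lower. The medians were -0.37 and -0.51. Ptgs2 had 71.6 CPM in IMP1 KO, against 759.9 CPM in IMP1 WT, and 6.72 CPM in IMP2 KO, against 474.4 CPM in IMP2 WT. Snai2 and Mmp2, of mesenchymal cells, had 325.1 and 2276 CPM in IMP2 KO, against 111.1 and 815.4 CPM in IMP2 WT. They had 90.4 and 497.3 CPM in IMP1 KO, against 102.0 and 704.8 CPM in IMP1 WT. Snai1, also at least 2-fold higher in IMP2 KO, had 181.1 CPM there, against 72.2 CPM in IMP2 WT. Unlike those genes, Snai1 was higher in IMP1 KO too, at 111.5 CPM, against 83.3 CPM in IMP1 WT.

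Factors of senescence heterochromatin, which HMGA proteins help to build, had 7 higher and 3 lower of 15 with IMP1 (median 0.01, but 4 and 8 under upper-quartile and 5 and 8 under total-count scaling) and 7 higher and 4 lower with IMP2 (median 0.08; 6 and 6, and 10 and 3). All tested genes split into 31.7% higher and 31.9% lower with IMP1, and 40.3% and 37.3% with IMP2. Other AT-hook proteins were mostly lower with IMP2: 13 of 14 fell and 1 rose (median -0.56), and 12 and 1 under total-count scaling. With IMP1, 8 of these rose and 2 fell (median 0.16), but 4 and 5 under upper-quartile and 4 and 4 under total-count scaling. Kmt2a and Ash1l, histone methyltransferases with AT-hooks, had log2 fold changes of -1.32 and -1.22 with IMP2 (adjusted p = 5.26e-19 and 2.81e-17, edgeR). Hmga1, itself an AT-hook gene, had 1.12 there and Hmga2 -0.47. In IMP1 IP over IMP2 IP, which uses no IgG library, 13 AT-hook genes rose and none fell, and 10 and 1 under total-count scaling, against -2.16 for Hmga1. There 34.1% of all tested genes rose and 37.3% fell.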

How the data were processed

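Per the submitters' processing notes the reads were handled with STAR and HTSeq on mm10; the annotation release, strand setting and versions are not given in the sources used here. The deposited files hold the authors' raw counts per Ensembl gene, 1 file a library, with 5 tally lines for reads not counted, which were left out of library sizes. Symbols came from a table that named 42462 of 43629 IDs.

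All 9 immunoprecipitates were fitted together with edgeR 4.0.16 (R 4.3.3): filterByExpr by group, TMM (factors 0.894 to 1.13), glmQLFit and glmQLFTest, 2-sided, Benjamini-Hochberg over 14076 genes, threshold 0.05; the common biological coefficient of variation was 3.84%. Total RNA has 1 library a group, so ratios of TMM-scaled CPM (prior count 2) are given with exact conditional 95% counting intervals. Alternatives were DESeq2 1.42.0, other scalings and filters, and leaving out each library.

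The members, gene lists and named genes were chosen with earlier results of these data known. The genes named from a list come from those 2 with the highest and those 2 with the lowest value past the threshold in a comparison. Not all of these are named. For total RNA the named genes are examples picked from the list after their values were seen. For likeness the 5 genes of highest r are named, with predicted genes and pseudogenes passed over. P-values measure the spread between libraries, which may be technical.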

Additional observations from a re-analysis of the deposited data

How the results depend on the processing

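All 6 Hmga1 and Hmga2 values between immunoprecipitates kept their sign under every alternative run, where 82 alternative values moved by less than the spread between replicates and 23 by more. Of the ratios of immunoprecipitates to wild-type total RNA, 11 alternative values moved by less than that spread, 11 by more and 5 changed sign. The cause was not tested. Under upper-quartile scaling Hmga1 stood at -1.21 and 0.94 and Hmga2 at -0.82 and -0.65 with IMP1 and with IMP2 over IgG. Under total-count scaling these were -1.19 and 1.29, and -0.81 and -0.30, with -2.49 and -0.51 in IMP1 over IMP2. With genes of at least 10 CPM in 3 libraries they were -1.18 and 0.95, and -0.80 and -0.65, and 7240 genes passed in IMP2 over IgG, since fewer were tested. With no filter they were -0.98 and 1.21 for Hmga1 and -0.60 for Hmga2 with IMP1. With DESeq2 size factors, and with its Wald test, Hmga1 stood at 1.05 with IMP2 and -2.10 in IMP1 over IMP2, and with only the 2 groups fitted at 1.08 with IMP2. The median of all genes moved by -0.17 and -0.179 under upper-quartile and by -0.153, 0.174 and -0.327 under total-count scaling in the 3 comparisons.

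Leaving out 1 library gave Hmga1 -1.06 to -1.02, 1.1005 to 1.16 and -2.19 to -2.13, Hmga2 -0.68 to -0.63, -0.54 to -0.36 and -0.28 to -0.11, and 8352 to 9729, 10536 to 11414 and 9580 to 10103 genes past the threshold. Replicate numbers did not pair the libraries (r -0.059 to 0.074 between same-numbered ones); with the replicate block 9017, 10961 and 10067 genes passed. Against IMP1 WT alone and IMP2 WT alone, the ratio to total RNA was -2.35 and -1.25 for Hmga1 and -1.08 and -0.020 for Hmga2 with IMP1, -0.13 and 0.97, and -0.84 and 0.22, with IMP2, and -1.37 and -0.26, and -0.47 and 0.58, with IgG, where total-count scaling gave Hmga2 -0.067. Adding Hmga1b to Hmga1, chosen after seeing the data, gave -2.52, -0.30 and -1.53 with IMP1, IMP2 and IgG. Knockout values stayed within their counting intervals. Hmga1b is near the limit of depth in the immunoprecipitates, where 3 counts are 0.123 to 0.256 scaled CPM.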
